A study of Arabidopsis thaliana with 18 samples.

Results

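The center of leaf 5 was compared between the quadruple mutant tcp2tcp3tcp4tcp10 and wild-type Col-0 of Arabidopsis thaliana. The comparison was defined by the labels and used 6 of the 18 RNA-seq libraries of the series, 3 center libraries per genotype. No measured value chose them. The other libraries were the margins of the same leaves and both pieces of the double mutant tcp2tcp4, which carries wild-type TCP3 and TCP10. Growth was at 23 °C under 16 h light and 8 h dark, first on plates (5 days), later in soil. Leaf 5 was collected at Zeitgeber time 6, when leaf 7 emerged, and each library pooled the center pieces of leaf 5 from 15 to 20 plants. Planting in the greenhouse was staggered by 2 days per line, starting with the quadruple mutant and ending with Col-0, so effects of genotype and of plant age cannot be told apart. The mutant alleles are not described in the labels, and nothing says that the pools were grown as separate cultures, so the p-values measure the spread between these pools.

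The CIN-class transcription factors TCP2, TCP3, TCP4, TCP10 and TCP24 are known to end cell proliferation in the growing leaf from the tip downwards and to promote cell expansion and differentiation. Their messages are cut by the microRNA miR319, which keeps their levels low in young tissue, and plants that lose several of them form large, crinkled leaves. The mature sequence of miR319a and its sites in the 5 messages are shown because they define this subfamily. They were read from RefSeq with the TAIR10.1 build, 5′ to 3′. In miR319a (chr4:12353109-12353129, plus strand) capitals mark the seed, bases 2 to 8. In the sites capitals mark bases that form standard pairs with miR319a, G with C or A with U. All 5 sites lie in coding sequence, and 15 or 16 of their 21 bases form standard pairs. A further 1 to 4 bases per site, in small letters, form wobble pairs of G with U.
miR319a: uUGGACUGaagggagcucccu
TCP2 site (chr4:10163402-10163422, minus strand): caGGgGgaCCCUUCAGUCCAA
TCP3 site (chr1:19850522-19850542, minus strand): gaGGgGucCCCUUCAGUCCAu
TCP4 site (chr3:5063300-5063320, plus strand): gaGGgGucCCCUUCAGUCCAg
TCP10 site (chr2:13221210-13221230, minus strand): AaGGgGuaCCCUUCAGUCCAg
TCP24 site (chr1:10628989-10629009, minus strand): uaGGgGgaCCCUUCAGUCCAA

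The 6 center libraries held 6861335 to 12018414 reads counted in genes, and 20219 to 20756 loci had a read. Reads aligned to several places were 3.92% to 4.71% of their totals. In the tissue, 26 light harvesting and photosystem genes made up 98540 to 145647 CPM (counts scaled for library size). Of 4 shoot meristem genes, STM and WUS had no read in these 6 libraries, which allows up to 0.399 CPM (3 counts in the smallest library), CLV3 had 1 read, and CLV1 was at 49.7 to 67.4 CPM. STM, WUS and CLV3 were picked after their values were seen. Levels below are CPM in libraries 1, 2 and 3 of a group. Differences are log2 fold changes of the quadruple mutant over Col-0 ± SE from edgeR's quasi-likelihood test with 3 libraries per group, and adjusted p is the Benjamini-Hochberg value over all 17763 loci tested. A gene is said to be called, or to have risen or fallen, where its adjusted p was below 0.05.

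The transcripts of the mutated genes were low in every quadruple mutant library. TCP2 stood at 63.7, 66.4 and 65.7 CPM in Col-0 and at 8.25, 7.16 and 6.65 CPM in the mutant (log2 -3.14 ± 0.09, adjusted p = 2.54e-15). TCP10 stood at 63.4, 64.5 and 56.7 CPM in Col-0 and at 6.03, 4.15 and 4.79 CPM in the mutant (-3.64 ± 0.12, adjusted p = 4.29e-14). For both genes the groups lay far apart and the mutant libraries were close to each other. TCP4 kept the largest remainder, 24.8% of its Col-0 level, with 80.7, 73.2 and 83.7 CPM against 16.9, 22.5 and 19.4 CPM (-2.0 ± 0.11, adjusted p = 4.97e-11). TCP3 had few reads, 49 in the 3 Col-0 libraries and 12 in the mutant ones, and was at 1.33, 1.73 and 2.88 CPM against 0.317, 0.488 and 0.399 CPM (-2.24 ± 0.42, adjusted p = 4.26e-04). TCP3 overlaps another gene model, and since the strand of counting is not given, some of these reads may belong to its neighbor. TCP24, mutated in neither line, was at 50.9, 54.2 and 56.3 CPM in Col-0 and at 55.0, 53.6 and 54.6 CPM in the mutant. Its groups overlapped, and the difference of 0.015 ± 0.07 was not called (adjusted p = 0.903).

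**Figure D1:**
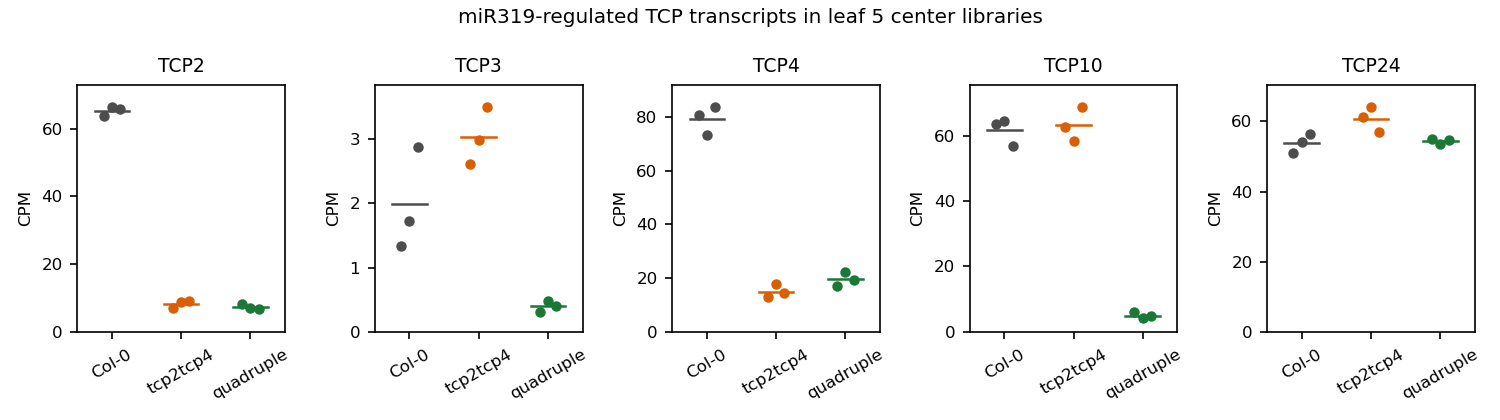
Level in CPM (vertical axis, from 0) of the 5 miR319-regulated TCP genes in the 9 center libraries, grouped by genotype. Points are libraries and bars are means of 3. TCP2 and TCP4 are low in both mutants, TCP10 is at 6.03 CPM or less in the quadruple mutant alone, and TCP24 overlaps between Col-0 and the quadruple mutant.

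In all, 5520 of 17763 loci tested were called (31.1%), 2706 higher (15.2%) and 2814 lower (15.8%) in the quadruple mutant center. Most called differences were under 2-fold: 323 genes rose and 298 fell at least 2-fold. The median log2 fold change over all loci was 0.01, which the scaling of libraries holds near 0 whatever the size of the differences. The libraries of one genotype all lay above those of the other for 7800 loci (43.9%). Counts of list members called, and groups that do not overlap, are to be read beside these shares. With Col-0 library 1 left out, the number of calls was 4171, the lowest of the 6 such values.

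**Figure D2:**
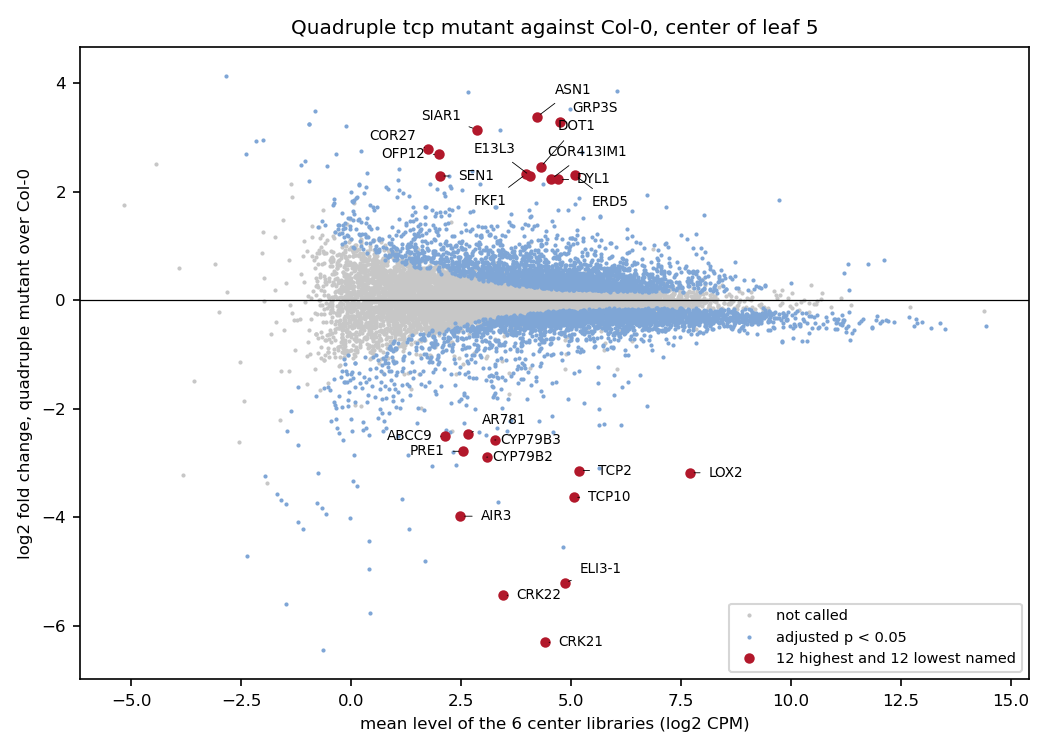
Log2 fold change of the quadruple mutant over Col-0 in the center (vertical axis) against the mean level of the 6 libraries in log2 CPM (horizontal axis), 1 point per locus tested. Blue points are called at an adjusted p under 0.05, and the 24 named genes with the largest changes are red, from -6.31 (CRK21) to 3.38 (ASN1).

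Members of the TCP family outside the mutated set were called in both directions or not at all. None of TCP5, TCP13 and TCP17, the CIN-class genes without a miR319 site, given as the whole list after their values were seen, was called, and their fold changes ran from -0.17 to 0.12. Of 9 class I TCP genes tested (of 13), whose products often act on growth in the opposite sense, 3 rose and 2 fell, with a median of 0.11. TCP15 rose from 36.0, 39.8 and 36.2 CPM to 65.7, 61.8 and 67.1 CPM (0.80 ± 0.07, adjusted p = 7.4e-08). Its groups did not overlap, which held for 43.9% of all loci tested. TCP14, its close relative, stood at 46.9, 49.8 and 49 CPM in Col-0 and at 60.5, 79.8 and 68.2 CPM in the mutant (0.52 ± 0.11, adjusted p = 0.00104). The calls that fell, TCP19 and TCP23, were lost together without Col-0 library 2 (adjusted p = 0.125 and 0.0580) and without quadruple library 2 or 3. TCP23 was also lost without Col-0 library 3 or quadruple library 1, so that 0 fell without Col-0 library 2 or mutant library 2 or 3. TCP22, the smallest rise, was not called without Col-0 library 1 (adjusted p = 0.153) or quadruple library 2 or 3.

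The 12 genes that fell most, by the rule for named genes, held TCP2 and TCP10 themselves, a pair of receptor kinase genes, and genes of jasmonate and indole glucosinolate synthesis. CRK21 and CRK22, neighbors on chromosome 4 that encode cysteine-rich receptor-like kinases, fell the most. CRK21 was at 43.5, 37.2 and 44.8 CPM in Col-0 and at 0.952, 0.163 and 0.532 CPM in the mutant, 1.31% of the wild-type mean (-6.31 ± 0.26, adjusted p = 6.67e-13). CRK22 was at 21.0, 23.4 and 19.8 CPM against 0.423, 0.570 and 0.399 CPM (-5.44 ± 0.23, adjusted p = 7.9e-13). These are closely related family members, and how reads shared by them were counted is not given, so their separate values are uncertain. ELI3-1, an elicitor-activated member of the cinnamyl alcohol dehydrogenase family, dropped from 58.0, 54.4 and 56.7 CPM to 2.65, 0.977 and 0.931 CPM (-5.21 ± 0.16, adjusted p = 1.1e-14). Each of the 3 was separated from Col-0 by more than a factor of 10 in every library. AIR3, which encodes a subtilisin-like protease first found as auxin-induced in root cultures, was at 11.9, 8.79 and 10.8 CPM against 0.952, 0.407 and 0.665 CPM (-3.98 ± 0.24, adjusted p = 4.71e-10). LOX2, the chloroplast lipoxygenase of jasmonate synthesis and a known direct target of TCP4, was the most abundant of them, at 311, 397 and 419 CPM in Col-0 and 28.6, 47.5 and 48.0 CPM in the mutant (-3.18 ± 0.33, adjusted p = 5.63e-07). PRE1, a small helix-loop-helix protein that promotes cell elongation, fell from 10.4, 8.17 and 12 CPM to 1.69, 1.47 and 1.2 CPM (-2.79 ± 0.30, adjusted p = 9.44e-07). The ABC transporter gene ABCC9 was at 7.52, 7.31 and 7.57 CPM against 1.69, 1.14 and 1.06 CPM, and AR781 at 9.70, 12.5 and 9.97 CPM against 1.80, 2.44 and 1.33 CPM. No library of either genotype overlapped the other for any of these genes, as the rule required. AIR3 and ABCC9 overlap other gene models, so some of their reads may be assigned wrongly.

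Sequence before the start of these genes was searched for GGACCA, a core bound by TCP4-type factors, on both strands (read as TGGTCC on the other), in the window from 250 bases before to 50 bases after the annotated gene start. Of 17699 such windows of tested loci, 7.84% held it. The share was 7.29% for the 2704 genes that rose and 10.3% for the 2812 that fell. It was 7.43% of the 323 genes that rose at least 2-fold and 17.1% (51) of the 298 that fell at least 2-fold. Of the 12 genes that fell most, 4 held the motif, and of the 12 that rose most, 0. The 250 bases before the start of these 4 are shown because they hold all matches among the 12 genes that fell most, a set picked after the values were seen, with the motif in capitals (RefSeq, TAIR10.1, plus strand). The match starts 226 bases before the gene start in CRK22, 245 and 113 bases before it in LOX2, and 9 bases before it in PRE1 and CYP79B3. Other named genes held the motif too, among them KRP1, MCM10 and LHCB4.3, which fell, and GIF2, PHB and SPL9, which rose. A match describes the letters and is not a measured binding site.
CRK22 (chr4:12181375-12181624): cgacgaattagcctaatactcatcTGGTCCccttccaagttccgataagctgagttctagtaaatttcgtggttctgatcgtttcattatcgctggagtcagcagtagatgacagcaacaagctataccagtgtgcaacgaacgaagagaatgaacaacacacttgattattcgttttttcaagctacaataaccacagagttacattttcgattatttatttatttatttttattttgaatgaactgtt
LOX2 (chr3:16524995-16525244): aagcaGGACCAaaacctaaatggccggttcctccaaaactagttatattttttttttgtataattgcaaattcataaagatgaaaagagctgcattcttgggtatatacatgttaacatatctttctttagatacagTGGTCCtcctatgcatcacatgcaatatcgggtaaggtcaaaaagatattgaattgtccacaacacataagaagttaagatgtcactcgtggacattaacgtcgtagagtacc
PRE1 (chr5:15957118-15957367): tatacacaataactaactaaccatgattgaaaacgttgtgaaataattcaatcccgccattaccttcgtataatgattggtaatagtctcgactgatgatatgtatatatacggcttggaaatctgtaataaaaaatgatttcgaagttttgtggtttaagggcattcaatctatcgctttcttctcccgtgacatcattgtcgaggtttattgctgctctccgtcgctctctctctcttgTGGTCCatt
CYP79B3 (chr2:9488163-9488412): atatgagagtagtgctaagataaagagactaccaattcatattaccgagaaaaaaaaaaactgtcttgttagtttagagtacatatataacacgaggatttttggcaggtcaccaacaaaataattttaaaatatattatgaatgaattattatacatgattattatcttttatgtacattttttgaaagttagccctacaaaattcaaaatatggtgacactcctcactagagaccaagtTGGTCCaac

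The 12 genes that rose most held genes known to be induced by darkness, sugar starvation, cold or the clock, and a few structural or growth genes. ASN1, the asparagine synthetase gene induced in darkness, was at 2.79, 3.96 and 3.24 CPM in Col-0 and at 58.6, 35.2 and 8.64 CPM in the mutant (3.38 ± 0.60, adjusted p = 2.40e-04), so its mutant libraries differed strongly among themselves. SEN1, another dark-inducible gene, and ERD5, the proline dehydrogenase gene, were also highest in mutant library 1 and lowest in library 3. SEN1 was at 0.606, 2.48 and 1.08 CPM against 11.5, 5.86 and 2.66 CPM. ERD5 was at 7.52, 18.0 and 9.01 CPM against 74.4, 55.0 and 39.6 CPM. The opposite order was seen for COR27, a cold and clock-regulated gene, at 0.849, 1.24 and 0.360 CPM against 2.75, 5.13 and 9.84 CPM (2.78 ± 0.82, adjusted p = 0.0132). COR27 was no longer called without Col-0 library 3 (2.43, adjusted p = 0.0555) or without mutant library 3 (2.31, adjusted p = 0.0608).

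In other genes the mutant libraries lay closer together. GRP3S, a glycine-rich secreted protein with close copies among which reads may be split, was at 3.88, 6.32 and 4.68 CPM in Col-0 and at 39.5, 53.6 and 52.3 CPM in the mutant (3.29 ± 0.28, adjusted p = 5.38e-08). DOT1, named for a mutant with defective leaf veins, rose from 6.91, 5.57 and 5.89 CPM to 33.9, 37.3 and 29.1 CPM (2.45 ± 0.15, adjusted p = 4.8e-10). OFP12, an OVATE family growth regulator, was at 1.33, 0.743 and 1.08 CPM against 7.94, 6.43 and 6.25 CPM (2.69 ± 0.21, adjusted p = 1.77e-08). In each of these genes the mutant libraries lay within a narrow range, well above all Col-0 libraries. E13L3, annotated as a plasmodesmata callose-binding protein, was at 5.70, 6.56 and 4.68 CPM against 26.9, 26.0 and 30.7 CPM, and the amino acid exporter gene SIAR1 at 0.970, 1.61 and 1.80 CPM against 11.9, 14.4 and 12.6 CPM. COR413IM1, a cold-regulated protein of the chloroplast envelope, was at 6.91, 8.30 and 9.49 CPM against 37.5, 42.2 and 36.0 CPM. The dormancy-associated gene DYL1 was at 7.52, 10 and 10.3 CPM against 32.3, 58.4 and 38.2 CPM. ASN1 and FKF1, described with the clock genes, overlap other gene models.

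Photosynthesis genes were lower in the mutant center. Of 26 genes for light harvesting proteins and photosystem subunits, 24 fell and none rose, with a median of -0.39 against 0.01 over all loci. LHCB4.3, an antenna protein of photosystem II, was at 82.1, 77.9 and 72.9 CPM in Col-0 and 43.6, 45.9 and 37.4 CPM in the mutant (-0.87 ± 0.11, adjusted p = 5.21e-06). PSBO2, of the oxygen-evolving complex, fell by 0.51 ± 0.08 on the log2 scale and PSAE1, of photosystem I, by 0.49 ± 0.07. All 14 genes of Rubisco and the Calvin cycle fell, with a median of -0.41. RBCS1A, a small subunit of Rubisco and the most abundant of them, fell by 0.48 ± 0.08 and GAPB, a subunit of glyceraldehyde phosphate dehydrogenase, by 0.51 ± 0.07. The summed level of the 26 light harvesting genes was 144740 to 145647 CPM in Col-0 and 98540 to 122249 CPM in the mutant. In these bulk samples fewer cells of a type and less RNA per cell cannot be told apart, here and below. Genes of these families have close copies, so the split of reads among copies is uncertain.

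**Figure D3:**
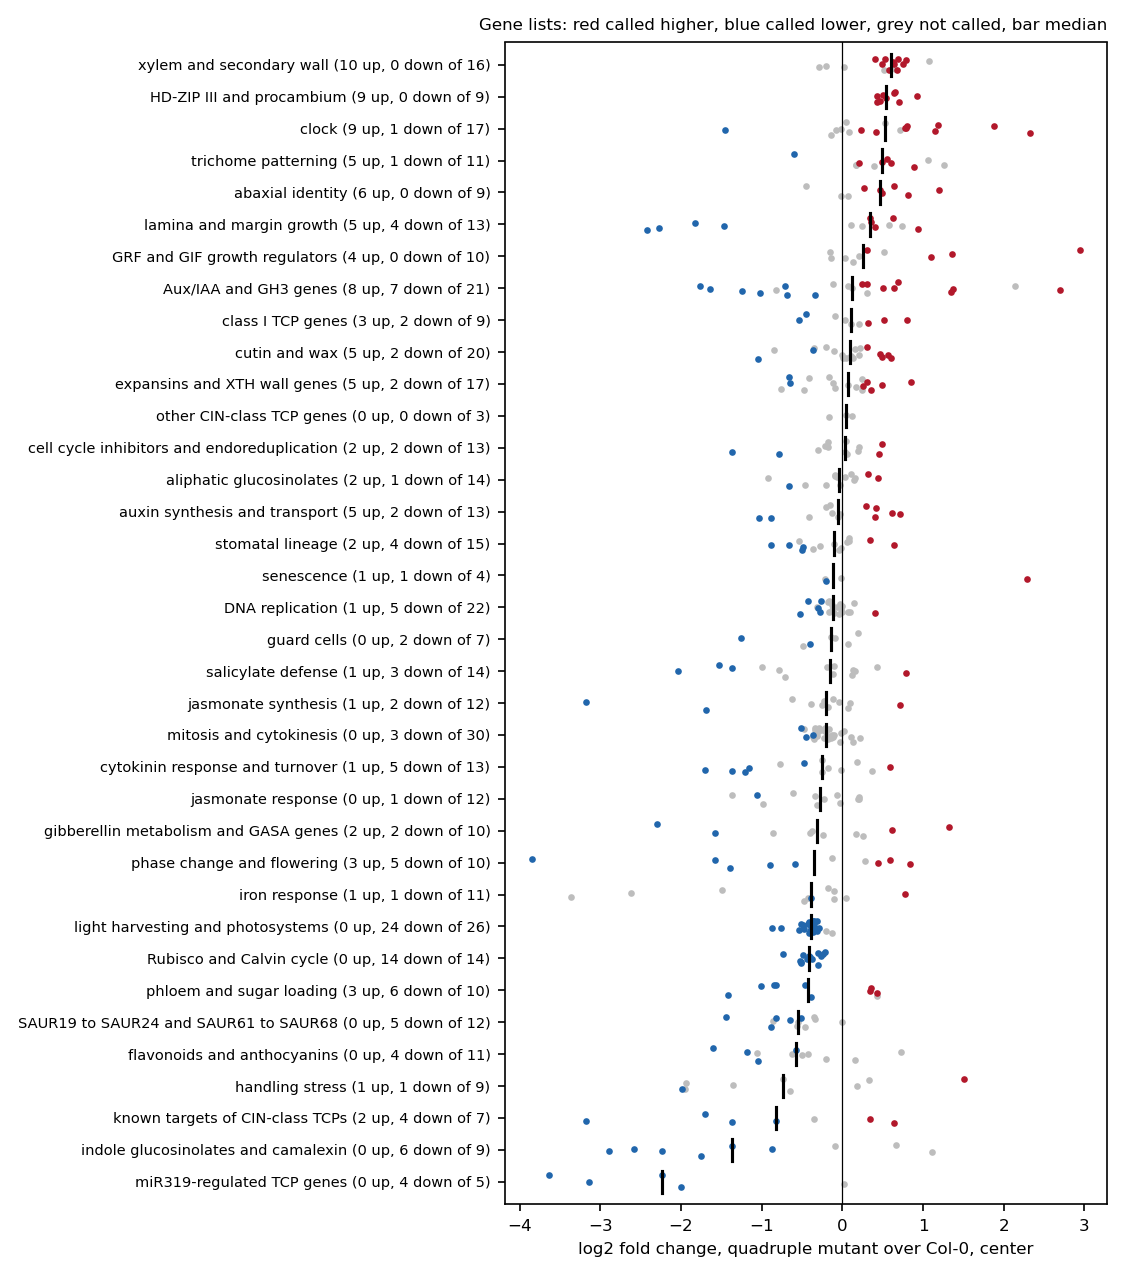
Log2 fold change of the quadruple mutant over Col-0 in the center (horizontal axis) for the members of each gene list with at least 3 loci tested (vertical axis, sorted by median). Red points rose, blue points fell, grey points were not called and black bars are medians. The xylem list has 10 members higher and 0 lower, and the light harvesting list 0 higher and 24 lower.

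Vascular genes did not move as one group. Of 16 genes of xylem and secondary wall formation, 10 rose and none fell, with a median of 0.60, and their summed level was 152 to 170 CPM in Col-0 and 216 to 252 CPM in the mutant. XCP2, a xylem cysteine protease, was at 50.6, 47.8 and 47.3 CPM in Col-0 and at 63.6, 74.0 and 72.9 CPM in the mutant (0.53 ± 0.08, adjusted p = 3.28e-05). XCP1, its relative, rose by 0.57 ± 0.09, and CESA7, a cellulose synthase subunit of secondary walls, by 0.68 ± 0.12. Both had no overlap between groups, as did 43.9% of all loci tested. The regulators VND6, VND7, MYB46 and MYB83 were not called, and VND7 stood at 1.08 ± 0.42 (adjusted p = 0.0576). These 4 were picked as regulators after their values were seen.

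All 9 tested genes (of 10) of the HD-ZIP III and procambium list rose, with a median of 0.54. REV, an HD-ZIP III regulator of vascular and upper leaf side identity, was at 23.8, 25.5 and 24.5 CPM in Col-0 and at 38.6, 37.9 and 39.0 CPM in the mutant (0.65 ± 0.08, adjusted p = 3.73e-06). PHB rose by 0.51 ± 0.07 and ATHB15 by 0.47 ± 0.07. The other genes of the list, given after their values were seen, included the auxin response factor MP (0.70 ± 0.13) and the procambium regulators ATHB8 (0.65 ± 0.10) and WOX4 (0.93 ± 0.27).

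Of 10 phloem and sugar loading genes, 6 fell and 3 rose. The sucrose transporter gene SUC2 was at 109, 98.1 and 106 CPM in Col-0 and 44.2, 54.1 and 57.7 CPM in the mutant (-1.01 ± 0.11, adjusted p = 8.04e-07). SWEET11, a sucrose exporter, fell from 26.3, 24.5 and 29.5 CPM to 7.09, 12.5 and 9.84 CPM (-1.42 ± 0.17), and AHA3, the proton pump of companion cells, fell by 0.84 ± 0.09. The sieve element genes SEOR2 (0.43 ± 0.08), SEOR1 (0.35 ± 0.10) and CALS7 (0.35 ± 0.12) rose. SEOR1 and CALS7 lost their calls without Col-0 library 2 (adjusted p = 0.0618 and 0.177) or mutant library 2 (0.0881 and 0.0870), which left 1 member higher. CALS7 was also lost without Col-0 library 1 or 3 or mutant library 3, and by DESeq2.

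None of 30 mitosis and cytokinesis genes rose and 3 fell, CYCA2;3 (-0.45 ± 0.10), CYCB1;3 (-0.52 ± 0.18) and the cytokinesis syntaxin KNOLLE (-0.37 ± 0.13), with a median of -0.20. KNOLLE was at 54.5, 53.5 and 59.6 CPM in Col-0 and 45.1, 36.1 and 49.6 CPM in the mutant. The number that fell was 1 without Col-0 library 3 or mutant library 1 or 2, 5 without mutant library 3, and 6 in a fit of the 6 libraries alone. CYCB1;3 and KNOLLE lost their calls in 4 and 5 of the 6 refits without a library, CYCB1;3 without Col-0 library 2 or 3 or mutant library 1 or 2 (adjusted p up to 0.132), and KNOLLE also without Col-0 library 1 (up to 0.206). Of 22 DNA replication genes 1 rose and 5 fell. The helicase loading factor MCM10 fell by 0.53 ± 0.13, and ICU2, a subunit of the replicative polymerase, rose by 0.40 ± 0.10. The number that fell was 2 without Col-0 library 3 or mutant library 1 or 2, and 3 without Col-0 library 1. Of 13 cell cycle inhibitors and endoreduplication genes 2 rose and 2 fell. Of all loci tested 31.1% were called, and the shares of this list and of the DNA replication list were not far from it. KRP1, an inhibitor of cyclin-dependent kinases and a known target of TCP4, fell from 14.3, 11.8 and 13.1 CPM to 4.87, 5.45 and 4.65 CPM (-1.37 ± 0.16, adjusted p = 3.43e-06), and SMR1 fell by 0.78 ± 0.10. KRP2 and SIM rose by 0.45 ± 0.16 and 0.49 ± 0.17, and neither was called without Col-0 library 3 or mutant library 1. DESeq2 called neither (adjusted p = 0.0780 and 0.0829). KRP2 was also lost without Col-0 library 1, and SIM without Col-0 library 2 or mutant library 3.

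Growth regulators of the GRF and GIF families, which sustain leaf cell proliferation, were called higher in 4 of 10 tested (of 12), and none fell. GRF3 rose from 11.6, 12 and 14.5 CPM to 27.0, 29.4 and 25.4 CPM (1.1 ± 0.12, adjusted p = 8.04e-07). GIF2 stood at 0.30 ± 0.09 and GRF6, with under 1 CPM in every library, at 1.35 ± 0.44. The count was 2 without Col-0 library 1 or 3 and 1 without Col-0 library 2 or mutant library 2, with GRF3 called in all of these. By DESeq2 GRF6 and GIF2 were not called (adjusted p = 0.153 and 0.0643).

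Among 13 genes of lamina and margin growth tested (of 17), 5 rose and 4 fell. The genes that fell included 3 NGATHA genes, which encode B3-domain regulators that restrict growth at the leaf margin. NGA2 was at 10.1, 9.78 and 9.37 CPM in Col-0 and at 1.59, 2.28 and 2.13 CPM in the mutant (-2.27 ± 0.18, adjusted p = 2.04e-08). NGA1 fell from 7.64, 9.29 and 9.37 CPM to 3.39, 2.03 and 1.99 CPM (-1.82 ± 0.20), and NGA3, at 3.15, 2.48 and 2.76 CPM against 0.423, 0.570 and 0.532 CPM, by 2.42 ± 0.36. For all 3 the groups were well apart. ANT, which promotes organ growth, rose by 0.62 ± 0.10, and AS2, which with AS1 keeps KNOX genes off in leaves, rose by 0.94 ± 0.16. AS1 stood at 25.0, 28.1 and 28.2 CPM against 35.2, 33.9 and 33.8 CPM (0.34 ± 0.11) and lost its call without Col-0 library 1 (0.28, adjusted p = 0.104) or mutant library 1 (0.32, adjusted p = 0.0652). The number that rose was 2 without Col-0 library 1 and 3 without Col-0 library 3 or mutant library 2.

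Of 9 genes of lower leaf side identity, 6 rose and none fell, with a median of 0.47. YAB5, a YABBY factor, was at 18.1, 21.9 and 17.3 CPM in Col-0 and at 32.6, 31.6 and 36.6 CPM in the mutant (0.81 ± 0.10, adjusted p = 6.61e-06). ARF4 rose by 0.47 ± 0.07 and KAN3 by 1.2 ± 0.27. Of 10 boundary and KNOX genes 2 had enough reads to be tested, and the summed level of the 10 was 4.00 to 7.33 CPM in Col-0 and 7.57 to 9.17 CPM in the mutant. BOP2, at 3.40, 3.84 and 5.4 CPM against 6.24, 6.43 and 6.91 CPM, rose by 0.62 ± 0.21, and was not called without Col-0 library 1 or 2 (adjusted p = 0.136 and 0.0939) or mutant library 2 or 3. CLV1, the 1 tested gene of 4 in the meristem list, stood at 0.25 ± 0.07 and was not called without Col-0 library 1 (adjusted p = 0.0607) or mutant library 1 (0.0690).

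In the epidermis, 2 of 15 stomatal lineage genes rose and 4 fell. ER, the receptor kinase ERECTA, which limits stomatal density and promotes organ growth, rose from 99.7, 105 and 104 CPM to 158, 157 and 166 CPM (0.64 ± 0.05, adjusted p = 4.7e-08). SCRM2, a partner of the lineage regulators, fell from 79.1, 76.9 and 85.8 CPM to 46.6, 41.2 and 43.3 CPM (-0.88 ± 0.08, adjusted p = 7.4e-08). STOMAGEN, a mesophyll peptide that promotes stomata, fell by 0.50 ± 0.08 and EPF2 by 0.66 ± 0.18, while SPCH, which starts the lineage, stood at 0.35 ± 0.10 and was not called by DESeq2 (adjusted p = 0.0586).

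The guard cell potassium channel gene KAT1 fell from 23.4, 21.1 and 20.7 CPM to 8.15, 9.36 and 9.84 CPM (-1.25 ± 0.12, adjusted p = 1.62e-07). It was 1 of 2 guard cell genes called of 7, and the other, AT1G22690, kept its call in 1 of the 6 refits without a library, that without mutant library 2. Of 11 trichome genes 5 rose and 1 fell, led by GL2 (0.61 ± 0.13), but the number that rose was 1 to 3 with any 1 of the 6 libraries left out. The fall, of TRY (-0.60 ± 0.21), was lost without Col-0 library 1 or 3 or mutant library 2 or 3. Of 20 cutin and wax genes tested (of 21) 5 rose and 2 fell, where 15.2% of all loci rose and 15.8% fell. CER3 was at 90.0, 94.7 and 95.1 CPM against 138, 145 and 141 CPM (0.60 ± 0.06), while CER1, its partner in alkane synthesis, was at 209, 185 and 152 CPM against 95.9, 69.4 and 101 CPM (-1.04 ± 0.13). The partners thus moved in opposite directions, each with no overlap between groups, as for 43.9% of all loci tested. The smaller fall of the list, MYB16, was not called without Col-0 library 1 or 3 or mutant library 1 or 2, and the count of genes that fell was 1 without Col-0 library 1 or mutant library 2.

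Hormone genes were called in both directions. Of 7 known CIN-class TCP targets tested (of 9), 4 fell and 2 rose, a list made from what is published on these factors. ARR16, a cytokinin response regulator bound by TCP4, fell from 10.3, 8.79 and 8.17 CPM to 3.28, 2.52 and 2.53 CPM (-1.71 ± 0.17, adjusted p = 3.06e-07), as did LOX2 and KRP1. SHY2, the auxin repressor IAA3, which TCP factors are known to activate, was at 30.6, 35.7 and 30.4 CPM against 41.8, 58.4 and 50 CPM and rose by 0.64 ± 0.15 (adjusted p = 0.0022), the opposite direction to LOX2. The rises of the list are SHY2 and AS1, and without Col-0 library 1 or mutant library 1 the count was 1.

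The Aux/IAA and GH3 list, repressors and auxin-conjugating enzymes induced by auxin, was split, with 8 of 21 tested (of 22) higher and 7 lower. IAA16 rose from 65.7, 71.2 and 70.3 CPM to 108, 117 and 108 CPM (0.69 ± 0.08, adjusted p = 1.79e-06) and IAA7 by 0.50 ± 0.07. DFL1, a GH3 enzyme that conjugates auxin, was at 4.49, 5.82 and 3.12 CPM against 11.3, 13 and 9.57 CPM (1.35 ± 0.24). IAA1 fell by 1.25 ± 0.18 and IAA2 by 1.02 ± 0.18. Of 13 auxin synthesis and transport genes tested (of 17), 5 rose and 2 fell. The influx carrier gene AUX1 was at 83.3, 83.6 and 88.5 CPM against 134, 137 and 147 CPM (0.71 ± 0.07, adjusted p = 6.29e-07) and LAX2 rose by 0.62 ± 0.08, while TAA1, the first enzyme of auxin synthesis, fell by 1.03 ± 0.23. The other fall, YUC2, was not called without Col-0 library 1 or 3 or mutant library 1 or 2, which left 1.

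Of 12 SAUR genes tested (of 14), small auxin-induced proteins of elongating cells, 5 fell and none rose, with a median of -0.55, and 3 fell without Col-0 library 3 or mutant library 1 or 2. SAUR21 was at 12, 7.68 and 11.4 CPM against 4.02, 3.42 and 4.12 CPM (-1.44 ± 0.28) and SAUR62 fell by 0.88 ± 0.16. Many SAUR genes are close copies, so their separate values are uncertain. Of 17 expansin and XTH wall-loosening genes tested (of 20), 5 rose, led by XTH4 (0.85 ± 0.17), and 2 fell. EXPA1 fell by 0.67 ± 0.16, and EXPA8 was not called without Col-0 library 3 (adjusted p = 0.0503) or mutant library 1 (0.0522), which left 1.

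Of 13 cytokinin genes tested (of 18), 5 fell and 1, ARR5, rose. CKX7, a cytokinin oxidase, fell from 28.3, 29.8 and 24.7 CPM to 13.1, 12.6 and 11 CPM (-1.16 ± 0.16). ARR5 was not called without Col-0 library 2 (adjusted p = 0.0537), Col-0 library 3 (0.0718) or mutant library 2 (0.0580). Of 10 gibberellin and GASA genes tested (of 13), 2 rose and 2 fell, and the changes were large. GASA6, a gibberellin-induced peptide of elongating cells, was at 130, 110 and 110 CPM in Col-0 and 21.4, 30.4 and 18.1 CPM in the mutant (-2.29 ± 0.18, adjusted p = 1.72e-08). GA3OX1, the last enzyme of gibberellin synthesis, fell from 13.7, 14.5 and 13.3 CPM to 4.44, 4.97 and 4.39 CPM (-1.58 ± 0.19). GASA14 rose from 41.5, 44.0 and 48.0 CPM to 115, 109 and 109 CPM (1.32 ± 0.10, adjusted p = 8.23e-09) and GASA4 by 0.62 ± 0.12. The groups did not overlap for any of these 4 genes, as for 43.9% of all loci tested.

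Jasmonate genes were called in small numbers beside LOX2 in the fit over all libraries. Of 12 synthesis genes tested (of 13), AOC1 also fell (-1.69 ± 0.46) and LOX6 rose (0.72 ± 0.10), and of 12 response genes tested (of 17) CORI3 alone fell, a call lost with any 1 of the 6 libraries left out. Without Col-0 library 3 or mutant library 3, 1 response gene rose, and in a fit of the 6 libraries alone 3 response genes fell. Of 14 salicylate defense genes tested (of 18), 3 fell and 1 rose, and 6 fell in a fit with a replicate block. Of all loci tested 31.1% were called, and the shares of this list and of the jasmonate synthesis list were not far from it. ACD6, a membrane protein that regulates defense, was at 49.5, 71.5 and 98.0 CPM against 18.1, 28.3 and 29.8 CPM (-1.52 ± 0.24), and PR5 rose by 0.79 ± 0.13. CBP60G fell by 2.03 ± 0.72, with 10.3 CPM in Col-0 library 2 and 2.67 and 2.28 CPM in the others, and without that library it stood at -1.01 (adjusted p = 0.377). It was also lost without any 1 of the mutant libraries.

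Most indole glucosinolate genes tested fell. Glucosinolates are sulfur-rich defense compounds, and those made from tryptophan have their own enzymes and regulators. Of 9 genes of this branch and of camalexin synthesis tested (of 11), 6 fell and none rose, with a median of -1.37. The 3 not called included 2 with values above 0, up to 1.11. In a fit of the 6 libraries with a replicate block, 1 gene of the list rose. MYB34, the transcriptional activator of the branch, was at 22.7, 18.3 and 19.6 CPM in Col-0 and at 4.55, 4.72 and 3.32 CPM in the mutant (-2.23 ± 0.20, adjusted p = 8.22e-08). CYP79B2 and CYP79B3, closely related enzymes between which the split of reads is uncertain, convert tryptophan to its oxime. CYP79B2 was at 15.3, 15.9 and 13.8 CPM against 1.27, 2.85 and 1.6 CPM (-2.89 ± 0.40), and CYP79B3 at 17.1, 16.8 and 15.9 CPM against 1.90, 4.15 and 1.73 CPM (-2.58 ± 0.33). CYP83B1, the next enzyme, fell from 102, 94.2 and 97.2 CPM to 23.8, 33.7 and 29.1 CPM (-1.75 ± 0.16, adjusted p = 8.24e-08). All Col-0 libraries lay above all mutant libraries for these 4 genes, a separation seen in either direction for 43.9% of all loci tested.

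The aliphatic branch, made from methionine, showed 2 genes higher and 1 lower of 14 tested (of 15), with a median of -0.05. MYB28, its main activator, stood at 68.3, 56.5 and 62.1 CPM against 77.9, 78.5 and 75.5 CPM (0.31 ± 0.08) and lost its call without Col-0 library 2 (0.25, adjusted p = 0.0517). MYB29 was lost without Col-0 library 2 or 3 or mutant library 2 or 3, and SOT17 (-0.66 ± 0.20) without mutant library 1 (adjusted p = 0.0726). Of 11 flavonoid and anthocyanin genes tested (of 17), 4 fell and none rose, with a median of -0.57. LDOX, a late enzyme of anthocyanin synthesis, was at 12.5, 18.6 and 11.5 CPM against 6.03, 4.72 and 2.93 CPM (-1.6 ± 0.42, adjusted p = 0.00632), and FLS1, flavonol synthase, fell by 0.57 ± 0.11. Without Col-0 library 2, the number that fell was 2. In a fit of the 6 libraries alone 6 fell and 1 rose.

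**Figure D4:**
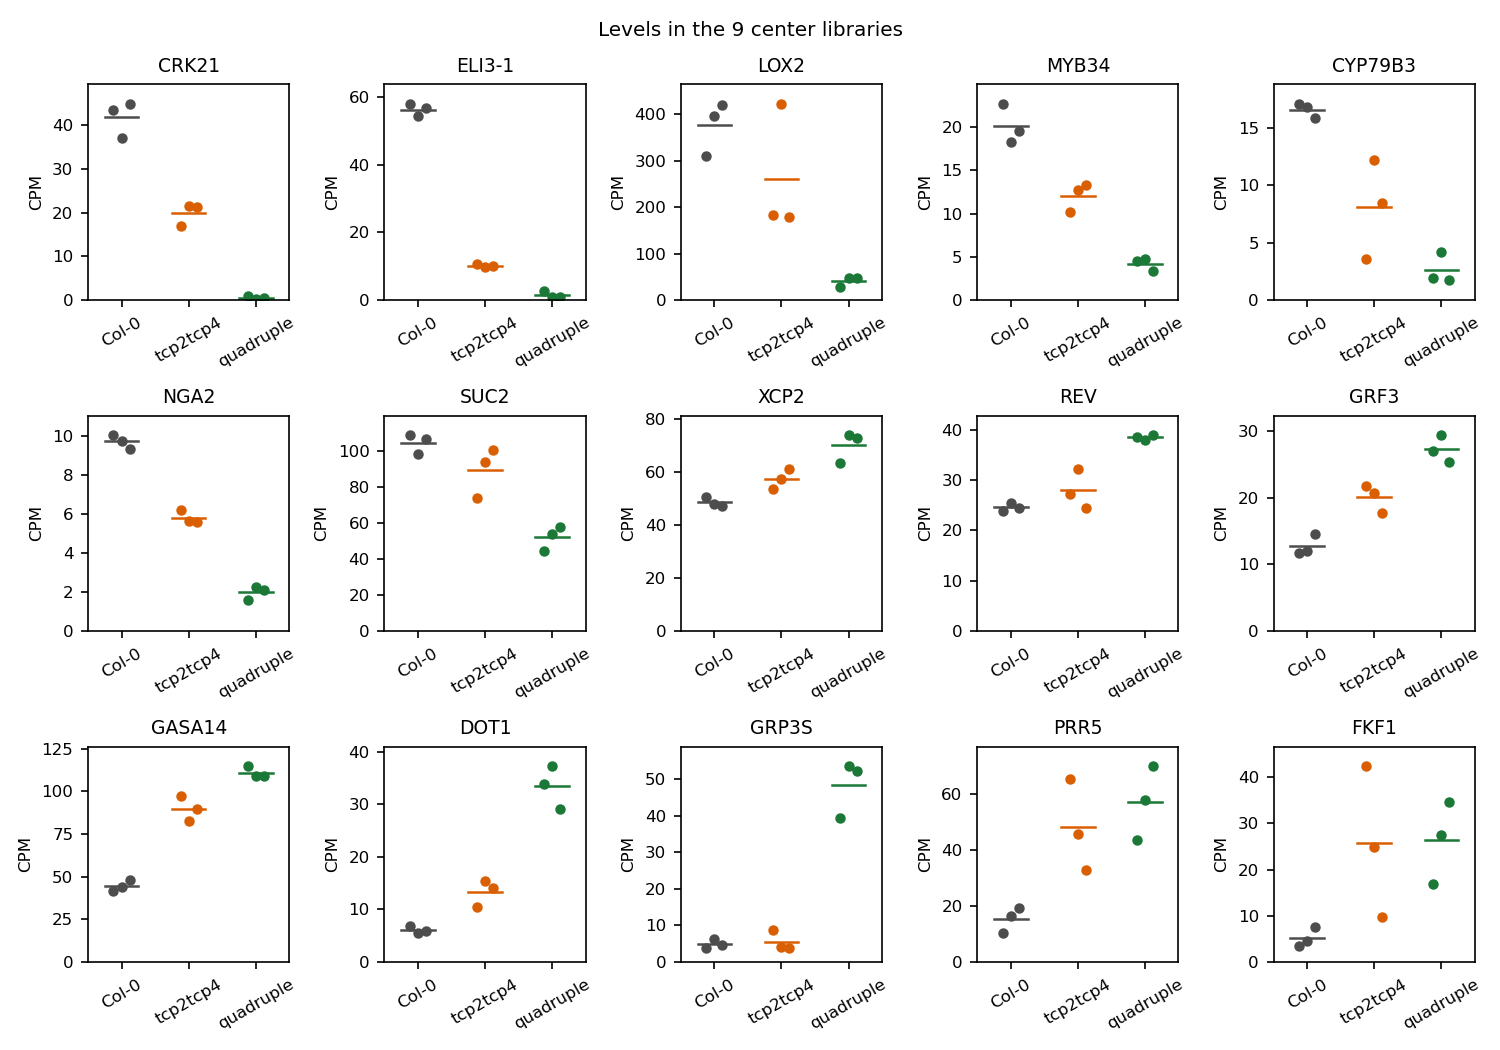
Level in CPM (vertical axes, each from 0) of 15 genes in the 9 center libraries, grouped by genotype. Points are libraries and bars are means of 3. CRK21, ELI3-1 and GASA14 show tight groups, while LOX2, PRR5 and FKF1 vary widely among the tcp2tcp4 libraries, with LOX2 at 183, 422 and 179 CPM.

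Clock genes were mostly higher. Of 17, 9 rose and 1 fell, with a median of 0.53. PRR5, an afternoon-phased repressor of the clock, was at 10.2, 16.6 and 19.5 CPM in Col-0 and at 43.5, 58.0 and 70.1 CPM in the mutant (1.88 ± 0.23, adjusted p = 4.74e-06). TOC1, which acts later in the same series, rose from 18.9, 17.8 and 23.9 CPM to 37.1, 47.9 and 49.3 CPM (1.15 ± 0.22), and GI rose by 0.78 ± 0.13. FKF1, a blue light receptor of day-length timing, was at 3.52, 4.46 and 7.57 CPM against 16.9, 27.4 and 34.7 CPM (2.33 ± 0.48, adjusted p = 9.20e-04). PRR9, the earliest of the series, fell from 23.0, 18.7 and 24.6 CPM to 9.73, 7.73 and 6.65 CPM (-1.45 ± 0.20). PRR5 and FKF1 were highest in library 3 of both genotypes. PRR9 was lowest in library 3 in the mutant but highest in library 3 in Col-0. All leaves were taken at Zeitgeber time 6, the order of collection among pools is not given, and its part in these values was not tested.

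Of 10 phase change and flowering genes tested (of 12), 3 rose and 5 fell. SPL9 and SPL10, factors that promote the adult phase, rose by 0.84 ± 0.11 and 0.59 ± 0.12, while SPL4 fell by 1.58 ± 0.31. The flowering integrator SOC1 was at 47.7, 49.8 and 48.3 CPM against 27.4, 25.7 and 24.7 CPM (-0.90 ± 0.08, adjusted p = 4.8e-08). FUL had 29 reads in the Col-0 libraries and 2 in the mutant libraries, a ratio of 17.2 (95% interval 4.35 to 149, counting error only). SPL11 rose by 0.44 ± 0.12 and was not called by DESeq2 (adjusted p = 0.0548) or without Col-0 library 2 (0.0758).

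Of 11 iron genes tested (of 12), FRO3 rose by 0.77 ± 0.14 and FER3 fell by 0.38 ± 0.10. Without Col-0 library 3, 2 fell. Of 9 genes known to respond to handling, touch or cold (of 10), COR15A rose from 22.7, 18.1 and 19.3 CPM to 41.5, 62.0 and 68.1 CPM (1.51 ± 0.19). CBF2, a regulator quickly induced by cold, was at 7.40 CPM in Col-0 library 1 and at 2.23 and 0.721 CPM in the others, against 1.16, 0.651 and 0.798 CPM in the mutant. It fell by 1.99 ± 0.60, and without Col-0 library 1 stood at -0.76 (adjusted p = 0.361). It was not called without mutant library 2 either (adjusted p = 0.0742). The number that fell was 2 without Col-0 library 3. Of 4 senescence genes tested (of 8), SEN1 rose and PAO fell by 0.21 ± 0.08. The call of PAO held in 1 of the 6 refits, that without mutant library 2, in which 2 of these genes fell.

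In the margin of the same leaves 7796 loci were called between these genotypes (43.9%), 22.1% higher and 21.8% lower. The difference between the center and the margin comparison was tested as an interaction, and 3047 loci were called (17.2%), 9.19% with the center difference above that in the margin and 7.96% with it below, or 4996 when pieces were blocked by leaf pool. All 10 phloem genes differed, each with the lower value in the margin. SUC2 fell by 1.01 ± 0.11 in the center and by 2.3 ± 0.11 in the margin (interaction 1.29 ± 0.15, adjusted p = 6.44e-06), and SEOR2, up in the center, was down in the margin at -0.85 ± 0.09. Of the 30 mitosis genes, 29 rose in the margin, with a median of 1.5, and 28 had a called interaction, all with the lower value in the center. For KNOLLE the values were -0.37 in the center and 1.64 ± 0.13 in the margin (interaction -2.01 ± 0.18). Light harvesting genes fell further in the margin, with a median of -0.99, and 24 of 26 differed. In the xylem list 0 rose in the margin and 5 fell, and 8 of 16 differed. Flavonoid genes ran the other way: 8 of 11 rose in the margin and 8 differed. LDOX was at -1.6 ± 0.42 in the center and 2.33 ± 0.48 in the margin (interaction -3.94 ± 0.64, adjusted p = 2.21e-04). DCR, a cutin synthesis gene, was at -0.20 ± 0.19 in the center and 3.34 ± 0.21 in the margin.

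**Figure D5:**
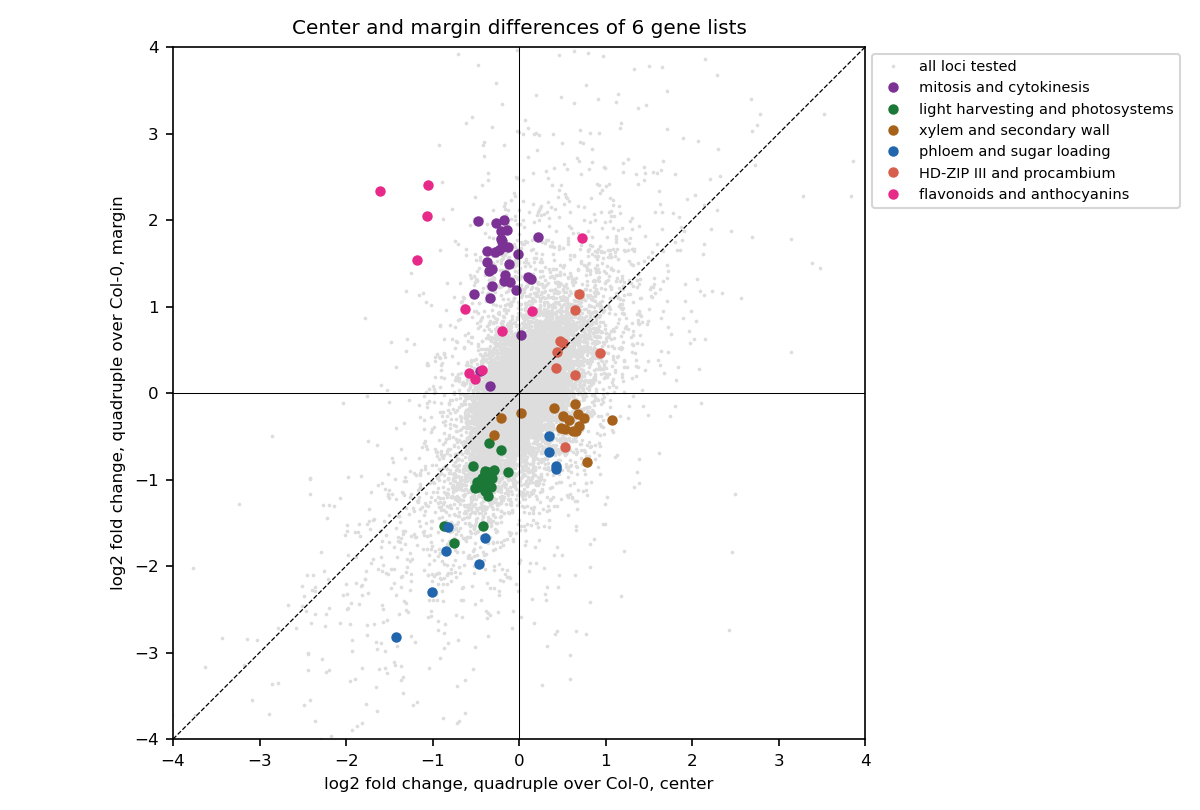
Log2 fold change of the quadruple mutant over Col-0 in the margin (vertical axis) against that in the center (horizontal axis), both drawn from -4 to 4. Grey points are all loci tested within that range, colored points are members of 6 lists, and the dashed line marks equal values. Mitosis genes lie near 0 on the center axis and up to about 2 on the margin axis, and phloem genes lie below the line.

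The interaction was called for 13 of 14 Rubisco and Calvin cycle genes, all with the lower value in the margin. It was called for 9 of 15 stomatal lineage genes, 8 of 13 lamina and margin growth genes and 6 of 10 GRF and GIF genes, all with the lower value in the center. Of 9 indole glucosinolate and camalexin genes 6 differed, with the lower value in the margin. Of the HD-ZIP III and procambium list, 2 of 9 had a called interaction, and REV rose in the margin as well (0.96 ± 0.08). The NGATHA genes fell further in the center: NGA2 was at -2.27 there and at -1.30 ± 0.15 in the margin (interaction -0.97 ± 0.24, adjusted p = 0.00787), with NGA1 and NGA3 in the same direction. Of the 12 genes that fell most in the center, the mutated TCP2 and TCP10 among them, all 12 fell in the margin. The interaction was called for ELI3-1 and CYP79B3 of these. Of the 12 that rose most, 10 rose in the margin, all but ASN1 and SIAR1, and the interaction was called for E13L3 and COR413IM1. A p-value that misses the threshold does not show that the others were equal.

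The quadruple mutant was also set beside the double mutant tcp2tcp4, in which TCP3 and TCP10 are not mutated. Planting was staggered between these lines as well, so effects of TCP3 and TCP10 and of plant age cannot be told apart. The double mutant shares its Col-0 libraries with the main comparison, and the comparison of the mutants shares the quadruple libraries, so the values are given side by side. The double mutant differed from Col-0 in 1093 loci (6.15%, 3.58% higher and 2.57% lower) and the quadruple from the double in 1409 (7.93%, 3.56% higher and 4.37% lower). The 1093 became 462 without Col-0 library 1 and 659 or 626 without double mutant library 1 or 2. It was 674 in a fit of the 6 libraries alone and 294 with a replicate block added. The 1409 became 841 or 871 without quadruple or double mutant library 3, and 750 and 430 in the same 2 fits. Of the 12 genes that fell most, 11 had a double mutant mean between the other groups, 6 had already fallen in the double mutant against Col-0, and 11 were lower in the quadruple than in the double mutant by the test. Of the 12 that rose most, the double mutant mean lay between in 11, 9 had already risen in the double mutant, and 5 were higher in the quadruple than in the double mutant. Both sets were chosen for their quadruple against Col-0 difference in these same libraries. That choice favors a double mutant mean in between and a difference between the mutants. The 12 that fell include TCP2 and TCP10, which are mutated in the quadruple mutant. CRK21 was at 17.0, 21.5 and 21.3 CPM in the double mutant (quadruple over double -5.25 ± 0.30, adjusted p = 6.24e-10). ABCC9, at 7.69, 6.63 and 8.06 CPM in the double mutant, was at the Col-0 level there and fell in the quadruple mutant against it (-2.52 ± 0.20, adjusted p = 1.21e-07).

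GRP3S behaved likewise in the other direction, with 8.67, 4.14 and 3.82 CPM in the double mutant and a rise of 3.18 ± 0.29 from there to the quadruple (adjusted p = 7.4e-07). SUC2 (-0.79 ± 0.11), SWEET11 (-1.43 ± 0.17) and AHA3 (-0.80 ± 0.09) were lower in the quadruple than in the double mutant, and 6 of the 9 HD-ZIP III and procambium genes were higher. For the clock genes PRR5, FKF1 and TOC1 and the cold gene COR15A, no difference between the mutants was called. PRR5 and FKF1 varied widely among the double mutant libraries, and a missed threshold does not show equal levels. COR15A was at 55.3, 69.1 and 55.8 CPM in the double mutant (quadruple over double -0.07 ± 0.17). LHY, a morning clock gene, was at 7.64, 8.92 and 4.32 CPM in Col-0, at 1.96, 3.15 and 4.14 CPM in the double mutant and 14.2, 20.7 and 11.6 CPM in the quadruple (2.29 ± 0.36, adjusted p = 3.47e-04). G6PD3, a plastid enzyme of the pentose phosphate pathway, was lower in the double mutant, at 3.76, 2.32 and 3.08 CPM, against 7.16, 7.31 and 7.45 CPM in Col-0 and 7.51, 8.71 and 7.31 CPM in the quadruple mutant. G6PD3 overlaps another gene model.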

How the data were processed

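TRIzol-extracted, DNase-treated RNA went into Illumina TruSeq RNA libraries, per the labels' protocols. The authors deposited whole-number read counts, not normalized, for 33602 loci in 18 columns. The submitters' processing notes list edgeR 3.8.6, HTSeq 0.7.2 and TopHat2 2.0.13, with TAIR10 as genome. Not given in the sources used here are what each tool did, its options, the counting strand and which annotation was used. The 5 summary rows of reads outside genes were left out of library sizes and tests; in the 6 center libraries reads without a feature were 0.500% to 0.658%, and ambiguous ones 1.47% to 1.55%. Names came from the RefSeq table of TAIR10.1, in which 32835 loci (97.7%) were found, and sequences from its genome.

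Counts were tested with edgeR 4.0.16 (R 4.3.3): TMM scaling, filterByExpr by group (17763 loci kept), 1 mean per group over all 18 libraries, quasi-likelihood F test, 2-sided, Benjamini-Hochberg over all loci. The SE is the log2 fold change divided by the square root of F. CPM values are scaled by the TMM library sizes. The biological coefficient of variation was 7.68%. DESeq2 1.42.0, RLE scaling, no low count filter, a fit of the compared libraries alone, a replicate block and leaving out each library were tried. The test was checked on simulated counts. No replicates were near-identical.

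The 38 gene lists held 524 loci, of which 455 passed the filter. The members, lists and tests were chosen with earlier results of these data known. Named genes are the 5 TCP genes; the 12 highest and 12 lowest fold changes of called genes that have a symbol, a mean of 5 CPM or more in the higher group and libraries that do not overlap; up to 3 members per list called in each direction, by lowest adjusted p; and, for the interaction and the quadruple against the double mutant, the 4 highest and 4 lowest. Any other gene is marked in the text as picked later. Margin and center libraries with the same number correlated at 0.196 to 0.384 after group means were removed (6 pairs, 5000 variable genes). Pairs with other numbers correlated at -0.238 to 0.0383. The leaf pool was therefore tried as a block for the interaction. The interaction values and adjusted p-values printed for genes and lists come from the fit without this block, which ignores that pairing.

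Among the named genes these overlap another gene model, so their reads cannot be assigned with certainty: ABCC9, AIR3, AS1, ASN1, AT1G22690, BOP2, CER2, CESA7, CYCA2;3, EDS5, FKF1, FRO3, G6PD3, GASA6, GIF2, GL2, GRF3, ICU2, KNOLLE, PAO, PCNA2, PSAE1, REV, SAUR63, SHY2, SIM, SMR1, SPL4, SPL9, TCP3, TCP19, TT19, WRKY29 and XCP1.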

Additional observations from a re-analysis of the deposited data

Results flagged for a closer look

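Of 156 genes considered, 72 differed between the center and the margin in their response to the quadruple mutation, by the interaction at an adjusted p under 0.05 (edgeR). Values below are log2, the center difference minus the margin difference, 47 above 0 and 25 below. They carry no explanation here.

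In photosynthesis and the vasculature all were above 0. Values were 0.67 for LHCB4.3, 0.54 for PSAE1, 0.59 for PSBO2, 0.42 for GAPB, 0.37 for SBPASE and 0.48 for RBCS1A. Phloem values were 1.27 for SEOR2, 1.03 for SEOR1, 0.85 for CALS7, 0.98 for AHA3, 1.29 for SUC2 and 1.4 for SWEET11. Xylem values were 0.95 for XCP2, 0.88 for XCP1 and 0.92 for CESA7.

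Cell cycle and replication genes were below 0: -0.71 for CYCA2;3, -1.66 for CYCB1;3, -2.01 for KNOLLE, -0.56 for PCNA2 and -1.30 for CDT1B. Growth and polarity genes were at -2.69 for GRF6, -1.23 for ANT, -0.76 for AS2, -0.77 for AS1, -0.97 for NGA2, -0.87 for NGA1, -1.42 for NGA3 and -0.69 for TCP19, with ARF4 at 0.35.

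The flagged auxin genes were above 0. Values were 1.16 for SHY2, 0.60 for AUX1, 1.08 for IAA16, 0.97 for IAA7 and 1.56 for both IAA1 and IAA2. SAUR62 was at 1.52 and SAUR63 at 1.38. Over the whole auxin synthesis and transport list, the interaction was called above 0 for 4 genes and below 0 for 3. Wall genes were at 0.73 for XTH4, 0.22 for EXPA6 and 1.75 for EXPA8. ARR5 was at 0.94 and GASA6 at 1.70.

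Defense and glucosinolate genes were at 2.88 for ACD6, 2.73 for EDS5, 0.93 for ELI3-1, 1.66 for CYP79B3, 0.93 for CYP83B1, 0.52 for MYB28 and 1.93 for SOT17. Flavonoid genes were at -0.81 for FLS1, -2.71 for TT19, -3.94 for LDOX and -3.45 for UGT79B1. Epidermal genes were at -0.44 for ER, -1.58 for SPCH, -1.73 for EPF2, 0.92 for KAT1, 0.83 for AT1G22690, -1.30 for GL2, 0.43 for TTG1, 0.35 for CER2, -1.10 for CER1 and -3.54 for DCR.

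The rest were SOC1 at 0.45, FRO3 at 1.81, COR413IM1 at 1.05, E13L3 at -2.22, RL3 at 3.61, PHT1;4 at 3.21, WRKY29 at 3.07, ChiC at 3.03 and MSRB9 at -3.85. Without quadruple mutant center library 1, PHT1;4 (2.54, adjusted p = 0.0725) and WRKY29 (2.67, adjusted p = 0.115) were not called.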

How the results depend on the processing

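The number of calls in the quadruple mutant center was 5520, and 5515 with RLE scaling, 5360 without a low count filter, 4245 by DESeq2, 5428 with the 6 libraries alone, and 4171 to 4888 with 1 library left out (2036 to 2405 higher, 2135 to 2562 lower). Same-numbered libraries of these groups correlated at 0.0986 to 0.150 and others at -0.110 to 0.00383. Every library thus correlated best with its own number, a hint from the data and not the design, but 1 pair was below 0.1 and the labels give no shared origin, so the numbers were not taken as pairs. With the replicate block 6045 loci were called. Under it the number that fell was 9 for mitosis, 4 for jasmonate synthesis, 5 for jasmonate response (2 rose), 6 for salicylate defense, 7 for flavonoids (1 rose), 7 for the stomatal lineage, 2 for aliphatic glucosinolates, 3 for iron and 4 for handling stress; 2 GRF and GIF genes, 3 trichome genes and 1 indole glucosinolate gene rose. With the 6 libraries alone 2 GRF and GIF genes and 2 trichome genes rose, and 2 aliphatic glucosinolate, 3 phase change, 2 iron and 2 handling genes, and 0 trichome and 0 senescence genes, fell. For the quadruple against the double mutant, 1409 became 750 with the 6 libraries alone, 430 with the replicate block and 841 to 1038 with 1 library left out (841 without quadruple library 3, 871 without double mutant library 3). For the double mutant against Col-0, 1093 became 674 with the 6 libraries alone, 294 with the replicate block and 462 to 1106 with 1 library left out (462 without Col-0 library 1, 659 and 626 without double mutant library 1 or 2). The interaction gave 4996 calls with the leaf pool as replicate block and 2254 to 2918 with 1 library left out, and the margin 6884 to 7160. The cause of these changes was not tested. Over the alternatives run, 149 named genes gave 1635 center values, of which 1496 kept direction and call, 138 in 35 genes lost the call, and 1, TCP24 without Col-0 center library 1, turned sign at -0.023 (adjusted p = 0.877), with 0.049 without Col-0 center library 3. With DESeq2, 17 named genes lost the call: TCP19, TCP23, GIF2, GRF6, BOP2, CYCB1;3, KRP2, SIM, YUC2, CORI3, CALS7, SPCH, MYB23, TTG1, TRY, SPL11 and PAO. Most named genes were picked in the main fit for large changes or a low adjusted p, which favors keeping a call. Of all 5520 center calls, 4224 were also called by DESeq2 and 4035 to 4567 with 1 library left out. Depth limits TCP3 and FUL, with 49 and 29 reads in Col-0, and most boundary genes, which were not tested.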
